A study of Mus musculus with 8 samples.

Results

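The 9 genes described here carry out or control gluconeogenesis, the making of glucose from lactate, amino acids and glycerol. They were chosen by name, as the rows Pck1, Pck2, G6pc, G6pc3, Fbp1, Fbp2, Pcx, Slc37a4 and Ppargc1a of the gene tables. All 9 were found among the 22059 genes listed, and all 9 were among the 17081 genes with enough reads to be tested. RNA was taken from whole livers of wild-type mice of strain FVB (FVB/NJ in the methods) at 4 stages, namely embryonic day 18 (E18), postnatal days 14 and 28 (P14, P28) and adult (3 months in the methods), with 2 samples per stage. The mice received no treatment, and poly(A)-selected RNA was sequenced in read pairs of 100 bases. The study calls the 2 samples of a stage biological duplicates and does not say whether an E18 sample came from 1 liver or from a pool, so a p-value measures the spread between these samples. The labels give neither sex nor feeding state nor hour of collection, and the methods name males for adult tissue.

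Before birth the fetus receives glucose from the mother through the placenta. After birth the liver makes its own glucose between meals and during suckling, when milk supplies much fat and little sugar. Pyruvate carboxylase (Pcx) and phosphoenolpyruvate carboxykinase (cytosolic Pck1, mitochondrial Pck2) bypass the pyruvate kinase step of glycolysis. Fructose-1,6-bisphosphatase (Fbp1 in liver and kidney, Fbp2 in muscle) bypasses phosphofructokinase. Glucose-6-phosphatase releases free glucose in the endoplasmic reticulum, with the catalytic subunit G6pc in liver and kidney and the widely expressed G6pc3 elsewhere, and Slc37a4 carries glucose-6-phosphate to it. Ppargc1a encodes PGC-1alpha, a coactivator of transcription that raises gluconeogenic genes during fasting. Glucagon acts on these genes through cyclic AMP and the factor CREB, which binds the cyclic AMP response element (CRE).

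The CRE in the Pck1 promoter is among the best known in liver, so the members' promoters were searched for it. RefSeq promoters of the mouse assembly GRCm38.p6, from 250 bases before to 50 after a gene start, were found for all 9 genes, with 12 starts in all. Both strands were searched for the CRE sequences TGACGTCA and TTACGTCA, for the shorter core TGACG, and for the TATAAA and CCAAT boxes. TTACGTCA was found in Pck1 and in no other member, and in 0.499% of 32851 mouse promoters of the same length. TGACGTCA was found in no member and in 1.79% of all promoters. The core TGACG was found in Pck1, where it overlaps TTACGTCA, and in Slc37a4, Ppargc1a and Fbp2, against 20.8% of all promoters. TATAAA was found in G6pc and at 1 start of Slc37a4, against 13.6% of all promoters. CCAAT, in 37.4% of all promoters, was found in Pck2, G6pc, Fbp1 and Pcx. The windows of 30 bases below are read 5′ to 3′ on the gene's strand, with the match in capitals (CGTCA is TGACG on the other strand). They are shown because Pck1, G6pc and Slc37a4 were among the genes that rose after E18, Ppargc1a rose with them, and Fbp2 moved the other way. The position is that of the first base of the match relative to a RefSeq gene start. RefSeq starts of G6pc and Slc37a4 lie inside the GENCODE spans given below. Slc37a4 has more than 1 start, and the bases shown at -61 of 1 start lie at -214 of another. A further TGACG match of Slc37a4, at -82, is not shown. A match describes these letters and does not show that a factor binds there.
Pck1, TTACGTCA at -93, chr2:173152969-173152998: aggcctgccccTTACGTCAgaggcgagcct
Slc37a4, TGACG at -61, chr9:44396874-44396903: gacaggcaggaTGACGtctccatcccaggg
Ppargc1a, TGACG at -49, chr5:51567756-51567785: gtgccctcccaCGTCActgagctccagtga
Fbp2, TGACG at -97, chr13:62858479-62858508: gcagctgccacCGTCAgggagggaggccag
G6pc, TATAAA at -29, chr11:101367676-101367705: aatccagggcaTATAAAacaggggcaaggc

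In the GENCODE annotation of GRCm38, Pck1 spans chr2:173153048-173159273 and Pck2 chr14:55540266-55551242, both on the plus strand. On chromosome 11, G6pc spans chr11:101367561-101377903 and G6pc3 chr11:102189620-102194081, both plus. Fbp1, at chr13:62864753-62888282, and Fbp2, at chr13:62836877-62858422, are neighbours on the minus strand. Pcx spans chr19:4510472-4621752 (plus), Slc37a4 chr9:44396852-44402968 (plus) and Ppargc1a chr5:51454250-51567726 (minus). The values below count reads on the transcripts of these genes.

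Each sample had 68154675 to 106055723 reads on genes. Levels below are reads per kilobase of transcript per 1000000 reads after scaling between samples by TMM, called normalised RPKM, and can be compared between genes. Differences between stages are log2 fold changes from edgeR's quasi-likelihood test with Benjamini-Hochberg adjustment over all genes tested. A gene is said to have risen or fallen where its adjusted p was below 0.1, and to have passed both thresholds where the change was also over 3-fold. E18 libraries needed scaling factors of 1.54 and 1.60 and the other libraries factors of 0.847 to 0.887, and scaling by library size alone moved the median log2 change of all genes from -0.03 to -0.90 between E18 and P14. In whole liver, fewer cells of a type and less RNA per cell cannot be told apart.

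Of the 9 members, 6 rose between E18 and P14 past both thresholds (Pck1, G6pc, Fbp1, Pcx, Slc37a4 and Ppargc1a), where 13.8% of all genes tested did. Pck2 fell past both thresholds, where 15.4% of all genes did, so 7 of 9 members were called in either direction against 29.2% of all genes. Fbp2 and G6pc3 fell by less than 3-fold. At the adjusted p alone, 6 members rose and 3 fell, against 38.2 and 39.3% of all genes. Pck1, G6pc and Fbp1, the forms known from liver, rose. The other form of each enzyme fell, but whether G6pc3 passed the adjusted p depended on the setting. Of these other forms, G6pc3 fell least (log2 -0.25, adjusted p = 0.0847 in edgeR). In edgeR fits without a filter, of only these 2 stages or with a replicate block, its adjusted p was 0.101, 0.122 and 0.110. In the other settings with no sample left out, the adjusted p of G6pc3 was 0.0622 (DESeq2) or lower. Leaving out each sample in turn gave log2 changes of G6pc3 from -0.30 to -0.18. With scaling by library size alone, 3 members (Pck1, G6pc and Fbp1) rose and 2 (Pck2 and Fbp2) fell past both thresholds. Of all 17081 genes tested, 1266 rose and 5095 fell past both in that setting.

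**Figure D1:**
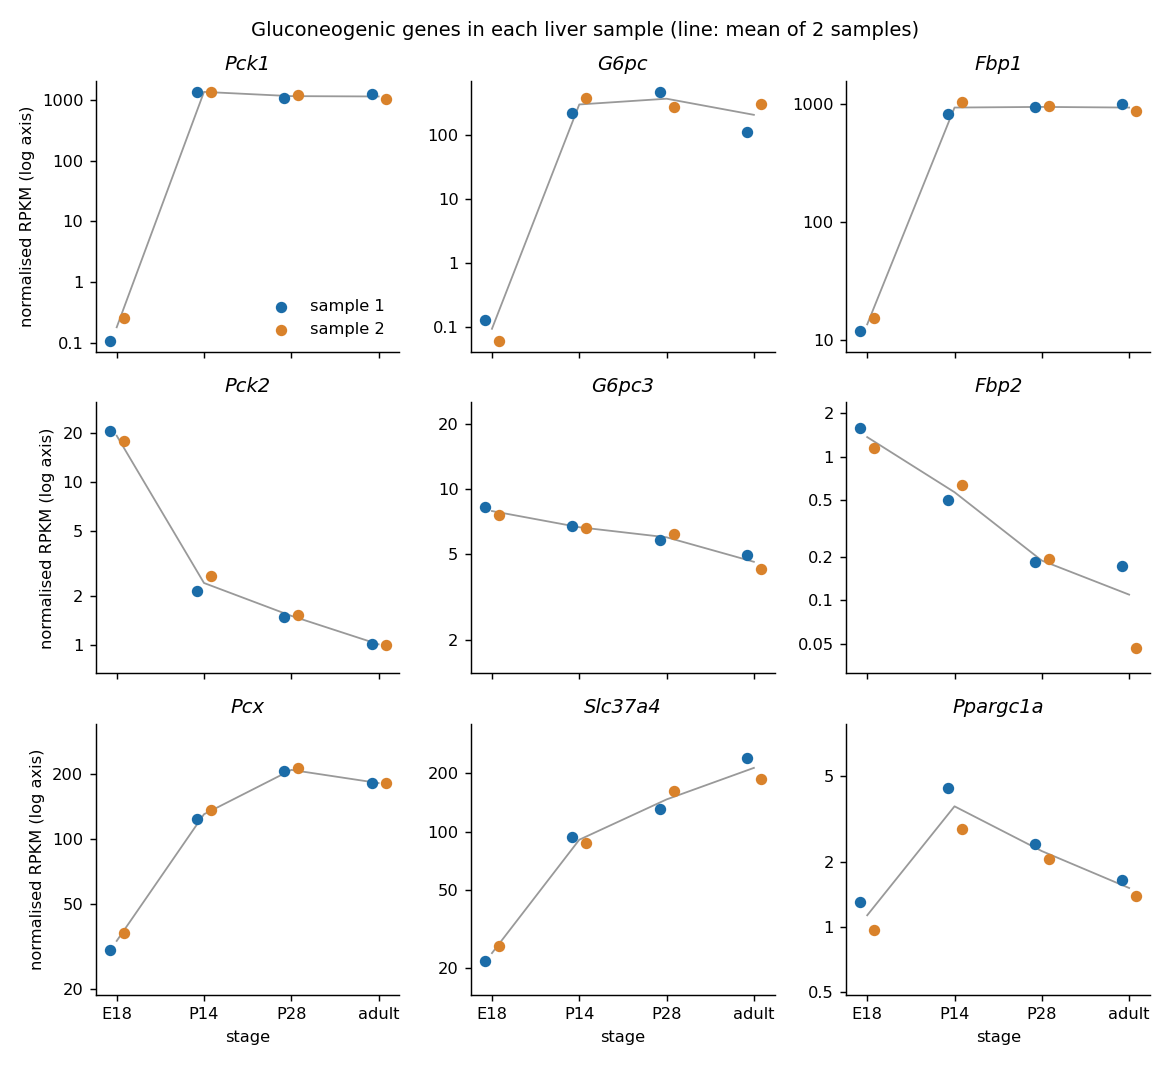
Level of each of the 9 genes in every sample, in normalised RPKM on a log axis, at E18, P14, P28 and adult (2 samples each, points; the line joins stage means). Pck1 lies at 0.105 and 0.253 at E18 and between 1039 and 1370 later, and Pck2 goes the opposite way.

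Pck1 makes phosphoenolpyruvate from oxaloacetate in the cytosol. It had 38 and 81 reads in E18 liver, 328608 and 315443 in P14 liver, 230046 and 227616 in P28 liver, and 190074 and 180527 in adult liver. Per length and after scaling, its level was 0.179 ± 0.105 (SD, n = 2) in E18 liver, 1361 ± 12.4 in P14 liver, 1158 ± 83.1 in P28 liver and 1144 ± 148 in adult liver. Every postnatal sample was far above both E18 samples. The increase from E18 to P14 was 12.91 on the log2 scale (SE 0.40, adjusted p = 1.66e-08) and was the 7th largest among the genes tested. Ranked by level per length among all genes listed, Pck1 moved from 14777 at E18 to 40 at P14. Both P14 samples lay above the 4 later ones, but later changes did not pass the test, with log2 changes of -0.23 (SE 0.24, adjusted p = 0.456) from P14 to P28 and -0.02 (SE 0.24, adjusted p = 0.977) from P28 to adult. The 2 E18 samples differ from each other, and both levels rest on under 100 reads.

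Pck2 catalyses the same reaction in mitochondria. Its reads were 9726 and 7470 in E18 liver, 665 and 804 in P14 liver, 403 and 370 in P28 liver, and 200 and 225 in adult liver. The level fell at each step, from 19.3 ± 1.88 in E18 liver to 2.39 ± 0.367 in P14 liver, 1.50 ± 0.0283 in P28 liver and 1.00 ± 0.0101 in adult liver (SD, n = 2 each). No 2 stages overlapped. The log2 changes were -3.01 (SE 0.13, adjusted p = 8.53e-08) from E18 to P14, -0.67 (SE 0.13, adjusted p = 0.0028) to P28 and -0.58 (SE 0.14, adjusted p = 0.0228) to adult, of which the first passed both thresholds. An antisense gene, Gm10876, shares 53 exonic bases with Pck2 in the GENCODE annotation of GRCm38 and is not among the genes listed. Whether the authors' counting used strand is not given, so a part of these reads could not be assigned between the pair.

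G6pc, the catalytic subunit that releases glucose from the hepatocyte, was near 0 in E18 liver and high in the other samples. G6pc had 40 and 17 reads in E18 liver, and 45614 and 75134 in P14 liver, 82840 and 43727 in P28 liver, and 14661 and 44603 in adult liver. Its level was 0.0951 ± 0.0470 at E18 and 299 ± 109 at P14, an increase of 11.58 on the log2 scale (SE 0.74, adjusted p = 8.79e-07) that ranked 12th among all genes tested. The level was 367 ± 134 at P28 and 206 ± 132 in adult. After birth, duplicates of G6pc lay farther apart than those of Pck1, with a ratio of the higher to the lower sample of 1.69 at P14, 1.69 at P28 and 2.67 in adult, against 1.01 to 1.20 for Pck1. At E18, on few reads, the ratio was 2.07 for G6pc and 2.42 for Pck1. The postnatal stages overlapped, and the log2 change from P28 to adult was -0.83 (SE 0.45, adjusted p = 0.261).

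G6pc3 was at a level of 7.89 ± 0.484 in E18 liver, 6.64 ± 0.112 in P14 liver, 5.96 ± 0.267 in P28 liver and 4.59 ± 0.465 in adult liver. It changed by no more than 3-fold in any comparison. Its decreases from E18 to P14 (log2 -0.25, SE 0.12, adjusted p = 0.0847) and from P28 to adult (log2 -0.38, SE 0.12, adjusted p = 0.0729) passed the adjusted p, and that from P14 to P28 (log2 -0.16, SE 0.12, adjusted p = 0.319) did not. Slc37a4, the carrier of glucose-6-phosphate that both phosphatases use, rose at each step. It had 6288 and 6568 reads in E18 liver, 18019 and 16281 in P14 liver, 21938 and 24095 in P28 liver, and 29066 and 25810 in adult liver. Its level was 23.7 ± 2.84 in E18 liver, 90.9 ± 4.72 in P14 liver, 147 ± 21.3 in P28 liver and 213 ± 37.6 in adult liver, with no overlap between neighbouring stages. The log2 changes were 1.94 (SE 0.16, adjusted p = 4.81e-06), 0.69 (SE 0.15, adjusted p = 0.00638) and 0.54 (SE 0.15, adjusted p = 0.0492), the first of them past both thresholds.

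Fbp1 had 2345 and 2667 reads in E18 liver, then 107397 and 132424 in P14 liver, 106473 and 97101 in P28 liver, and 82087 and 82673 in adult liver. Its level was 13.5 ± 2.42 at E18 and 927 ± 155 at P14, a log2 increase of 6.10 (SE 0.20, adjusted p = 2.01e-08). It was 938 ± 13.3 at P28 and 927 ± 81.8 in adult. The postnatal stages overlapped, with log2 changes of 0.02 (SE 0.16) and -0.02 (SE 0.16). Fbp2, the neighbour of Fbp1 on chromosome 13, had 285 and 181 reads in E18 liver, 59 and 73 in P14 liver, 19 and 18 in P28 liver, and 13 and 4 in adult liver. Its level was 1.36 ± 0.314 in E18 liver, 0.565 ± 0.0958 in P14 liver, 0.189 ± 0.00776 in P28 liver and 0.110 ± 0.0892 in adult liver. It fell by 1.27 on the log2 scale (SE 0.35, adjusted p = 0.0085) and then by 1.57 (SE 0.41, adjusted p = 0.0134). The last step (log2 -0.82, SE 0.53, adjusted p = 0.355) rests on few adult reads. Skeletal muscle genes summed to 8.93 and 11.03 CPM in the E18 samples and 10.9 CPM in P14 replicate 2, and to 0.796 to 1.48 CPM in the other 5 samples. These sums differ in makeup. Mylpf was at 6.34 and 8.68 CPM at E18 and 1.78 in P14 replicate 2, and Acta1 at 0.749 and 0.686 against 2.92. The P14 duplicates differed in muscle genes (Acta1 260 against 1 read and Myh1 69 against 0 reads in P14 replicate 1). Fbp2, a muscle enzyme, had 73 and 59 reads in those samples. Without P14 replicate 2, Fbp2 changed by -1.44 from E18 to P14 and by -1.40 from P14 to P28, against -1.27 and -1.57 with it. The part of muscle in the fall from E18 was not tested.

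Pcx makes oxaloacetate from pyruvate in mitochondria. It had 18041 and 19182 reads in E18 liver, 48189 and 51827 in P14 liver, 69924 and 64500 in P28 liver, and 44845 and 51307 in adult liver. Its level was 33.6 ± 4.43 in E18 liver, 130 ± 9.23 in P14 liver, 208 ± 4.61 in P28 liver and 181 ± 0.327 in adult liver. It rose by 1.95 on the log2 scale (SE 0.12, adjusted p = 8.26e-07) to P14 and by 0.68 (SE 0.12, adjusted p = 0.00176) to P28. The change to adult was -0.20 (SE 0.12, adjusted p = 0.301). Pcx was the most highly expressed member in E18 liver, and in place 4 at P14 and P28.

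Ppargc1a was at 1.30 and 0.965 normalised RPKM in E18 liver, 4.39 and 2.85 in P14 liver, 2.42 and 2.07 in P28 liver, and 1.64 and 1.39 in adult liver. The P14 samples were highest, and neighbouring stages did not overlap. It rose by 1.68 on the log2 scale to P14 (SE 0.22, adjusted p = 0.000119) and fell by 0.69 to P28 (SE 0.22, adjusted p = 0.0298). The change from E18 to adult was 0.42 (SE 0.22, adjusted p = 0.110), and it was -0.44 with scaling by library size alone. The increase to P14 stayed below 3-fold without E18 replicate 2 (log2 1.49) or without P14 replicate 1 (log2 1.34). The P14 to adult comparison, chosen after these values were seen, gave -1.26 (SE 0.22, adjusted p = 0.00132).

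Within a library, the ratio of paralogues does not depend on scaling. Pck2 held 99.5 and 98.6% of the summed Pck1 and Pck2 level per length in E18 liver, 0.155 and 0.196% in P14 liver, 0.135 and 0.125% in P28 liver, and 0.0809 and 0.0958% in adult liver. G6pc3 held 98.5 and 99.2% of the summed G6pc and G6pc3 level at E18 and 1.24 to 4.20% in the 6 postnatal samples. The pairs differ in that Fbp1 was already in the majority at E18, where Fbp2 held 11.9 and 6.99%, and Fbp2 held 0.00536 to 0.0610% later.
The mean log2 ratio of Pck1 to Pck2 was 16.5 higher in postnatal samples than at E18 (9.63 ± 0.463, SD, n = 6, against -6.89 ± 1.04, n = 2, exact permutation test, two-sided, p = 0.0357). G6pc to G6pc3 was 12.0 higher (5.55 ± 0.687 against -6.47 ± 0.656) and Fbp1 to Fbp2 8.78 higher (12.1 ± 1.31 against 3.31 ± 0.594), with the same exact p = 0.0357. This is the smallest p that 2 against 6 samples can give, and the adjusted value over the 3 pairs is also 0.0357. In each pair, all 6 postnatal ratios lay above both E18 ratios. The 6 postnatal samples are 2 each of P14, P28 and adult, and the test treats them as replicates of each other. Their SD therefore holds differences between stages as well as between duplicates. The stage means in that order were 9.16, 9.59 and 10.1 for Pck1 to Pck2 and 10.7, 12.3 and 13.3 for Fbp1 to Fbp2. For G6pc to G6pc3 they were 5.44, 5.89 and 5.32. An exact test of E18 against any other stage alone cannot give a p below 0.333.

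**Figure D2:**
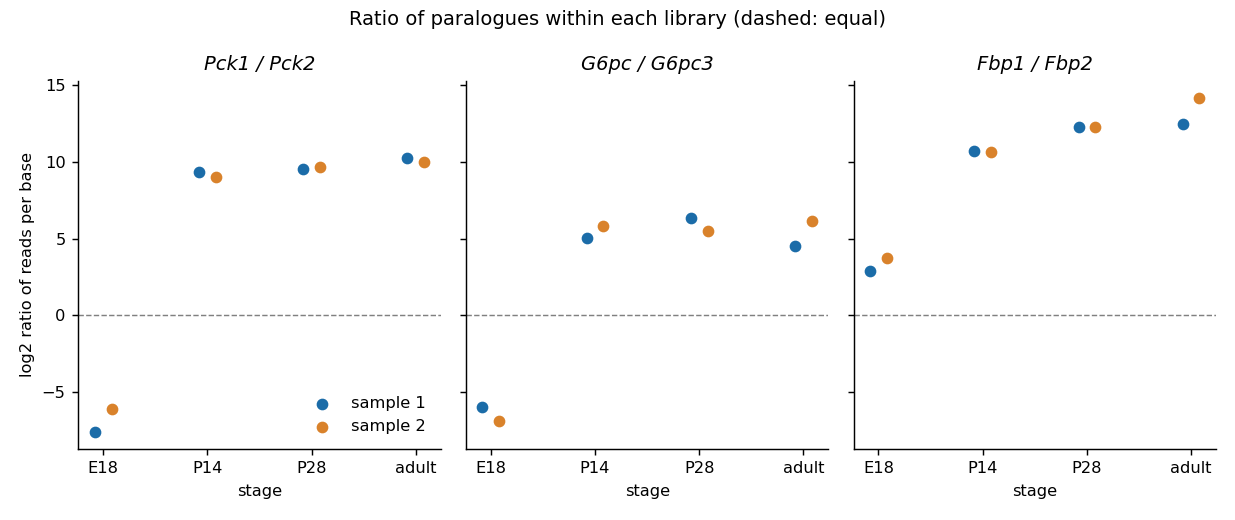
Log2 ratio of levels per length of Pck1 to Pck2, G6pc to G6pc3 and Fbp1 to Fbp2 in every sample (points) by stage, with equal levels as a dashed line at 0. Pck1 to Pck2 and G6pc to G6pc3 lie below 0 at E18 and above 0 afterwards, and Fbp1 to Fbp2 is above 0 throughout.

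After P14 the members changed by less than 3-fold in each interval. Between P14 and P28, a period that spans weaning, 0 of 9 members passed both thresholds in edgeR, against 9.59% of all genes, and DESeq2 also gave 0. At the adjusted p, Pcx and Slc37a4 rose, where 25.2% of all genes did, and Pck2, Fbp2 and Ppargc1a fell, where 28.6% did. Between P28 and adult, 0 of 9 passed both thresholds in edgeR and 0 in DESeq2, against 3% of all genes. Slc37a4 rose at the adjusted p, where 7.94% of all genes did, and Pck2 and G6pc3 fell, where 13.2% did. Over the whole course, from E18 to adult, 7 of 9 passed both thresholds against 40.5% of all genes. The 5 that rose (against 16.8%) were Pck1 (log2 12.66), G6pc (11.05), Fbp1 (6.10), Slc37a4 (3.17) and Pcx (2.43), and the 2 that fell (against 23.8%) were Pck2 (log2 -4.26) and Fbp2 (log2 -3.67). With library size alone, 4 rose and 3 fell past both thresholds, since Pcx (log2 1.58) was below 3-fold and G6pc3 (log2 -1.63) above it. Of all 17081 genes tested, 1653 rose and 6159 fell past both in that setting.

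**Figure D3:**
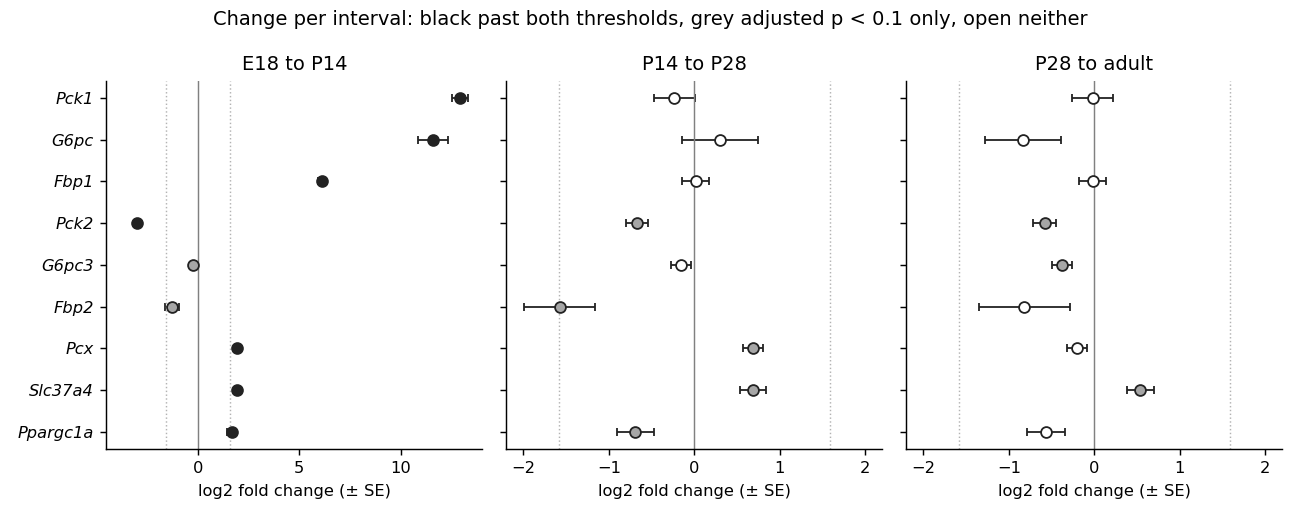
Log2 fold change of each member from E18 to P14, P14 to P28 and P28 to adult, with its standard error (bars). Black points passed both thresholds, grey points the adjusted p only and open points neither, and dotted lines mark 3-fold. Black points appear in the first panel only.

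By level per length, the order at E18 was Pcx, Slc37a4, Pck2, Fbp1 and G6pc3, then Fbp2 and Ppargc1a, whose samples overlapped, and last Pck1 and G6pc, which overlapped. At P14 and P28 it was Pck1, Fbp1, G6pc, Pcx, Slc37a4, G6pc3, Ppargc1a, Pck2 and Fbp2, with no overlap between neighbours. In adult, Slc37a4 lay above Pcx, the samples of G6pc overlapped both in places 3 to 5, and the others stood in the same order. By rank among all genes listed, Fbp1 moved from 3639 at E18 to 54 at P14, G6pc from 15681 to 210, and Pcx from 1376 to 490.

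Genes whose levels followed the members most closely over the 8 samples were sought by Pearson's r of log2(CPM + 0.1), which is a description only, since many genes share the step between E18 and P14. For Pck1 they were 2610203C22Rik, Serpinc1 (antithrombin, made by hepatocytes) and Acaa2, a mitochondrial thiolase of fatty acid oxidation, with r between 0.9995 and 0.9997. As many as 450 genes had r above 0.99 with Pck1 and 468 with Fbp1, against 0 with Ppargc1a. For Fbp1 the closest were Magix, Pemt and Pon1, for G6pc Pde7b, Athl1 and Stat2, and for Pcx AU022252, H2-K1 and 2310035K24Rik. For Slc37a4 they were Osbpl2, Scgb1c1 and Derl1, and for Ppargc1a Slc12a5, Ehd3 and Ncstn. Among the members, r was 0.999 between Pck1 and Fbp1, 0.988 between Pck1 and G6pc and -0.989 between Pck2 and Slc37a4.

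Many genes that bring substrate to the pathway rose in the same interval. Of 19 such genes for lactate, alanine, serine, glycerol and the mitochondrial shuttles, 12 rose past both thresholds between E18 and P14 and 0 fell, against 13.8 and 15.4% of all genes, with a median log2 change of 2.06 against -0.03 over all genes. With scaling by library size alone, 7 rose and 1 fell past both thresholds, against 1266 and 5095 of 17081 genes tested. Sds, serine dehydratase, had 57 and 77 reads at E18 and 18127 and 23572 at P14 (log2 8.80, SE 0.26, adjusted p = 1.27e-08). Gpt, the alanine aminotransferase that yields pyruvate, rose by 4.69 (SE 0.14, adjusted p = 1.50e-08) and its mitochondrial partner Gpt2 changed by -0.13 in that interval (SE 0.13, adjusted p = 0.381). Gpt2, chosen after its values were seen, instead rose by 3.40 on the log2 scale between P14 and P28 (SE 0.14, adjusted p = 8.04e-07). Gpt2 was at 9.87 to 12.3 normalised RPKM at E18 and P14 and at 98.9 to 170 from P28 on.

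Few of the 12 genes of reversible steps shared with glycolysis passed both thresholds. From E18 to P14, 1 rose and 0 fell past both thresholds, against 13.8 and 15.4% of all genes. At the adjusted p alone 2 rose and 8 fell, against 38.2 and 39.3% of all genes, with a median of -0.58. With library size alone, 1 rose and 4 fell past both thresholds, against 1266 and 5095 of 17081 genes tested. From E18 to adult Eno2, an enolase of neurons, was the 1 gene that fell past both thresholds (log2 -2.34, SE 0.41, adjusted p = 0.000597). In that comparison 23.8% of all genes fell past both. With library size alone 4 of the 12 did, and 6159 of 17081 genes tested. Gapdh was at 1.20 to 3.16 normalised RPKM. Gapdh, Pgam1, Eno1 and Ldhb have processed pseudogenes, and how reads shared with such copies were counted is not given, so their values are uncertain. Gapdh, Pgam1 and Eno1 are among the 8 that fell at the adjusted p from E18 to P14. That count and the median are therefore uncertain too.

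Of the 11 genes of the opposing, glycolytic steps, 3 rose and 3 fell past both thresholds between E18 and P14, against 13.8 and 15.4% of all genes, with a median of -0.77. With library size alone, 3 rose and 6 fell past both thresholds, against 1266 and 5095 of 17081 genes tested. Hk1, the hexokinase of most other cells, was at 58.9 and 56.3 normalised RPKM at E18 and 1.86 and 2.00 at P14, and fell by 4.90 (SE 0.10, adjusted p = 4.67e-09), and Hk2 fell by 2.76 (SE 0.23, adjusted p = 5.31e-06). Pklr, the liver pyruvate kinase, changed by -1.57 between E18 and P14 (SE 0.13, adjusted p = 5.46e-06, just below 3-fold) and rose by 1.79 between P14 and P28 (SE 0.13, adjusted p = 1.80e-05), and was named after its values were seen.

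Among 19 regulators and genes of glucose output, 9 rose past both thresholds and 0 fell between E18 and P14, against 13.8 and 15.4% of all genes, with a median of 1.55. With library size alone, 5 rose and 2 fell past both thresholds, against 1266 and 5095 of 17081 genes tested. Nr0b2, which encodes SHP, a repressor in bile acid signalling, rose by 6.95 (SE 0.37, adjusted p = 2.91e-07). Gcgr, the glucagon receptor, was at 12.4 and 11.9 normalised RPKM at E18 and 102 and 108 at P14, and rose by 3.11 (SE 0.10, adjusted p = 2.23e-08). Slc2a2, the glucose transporter GLUT2 of hepatocytes, rose by 1.82 (SE 0.12, adjusted p = 1.01e-06), and was named after its values were seen. G6pc2, the islet form of glucose-6-phosphatase, had 0 to 17 reads in every sample.

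**Figure D4:**
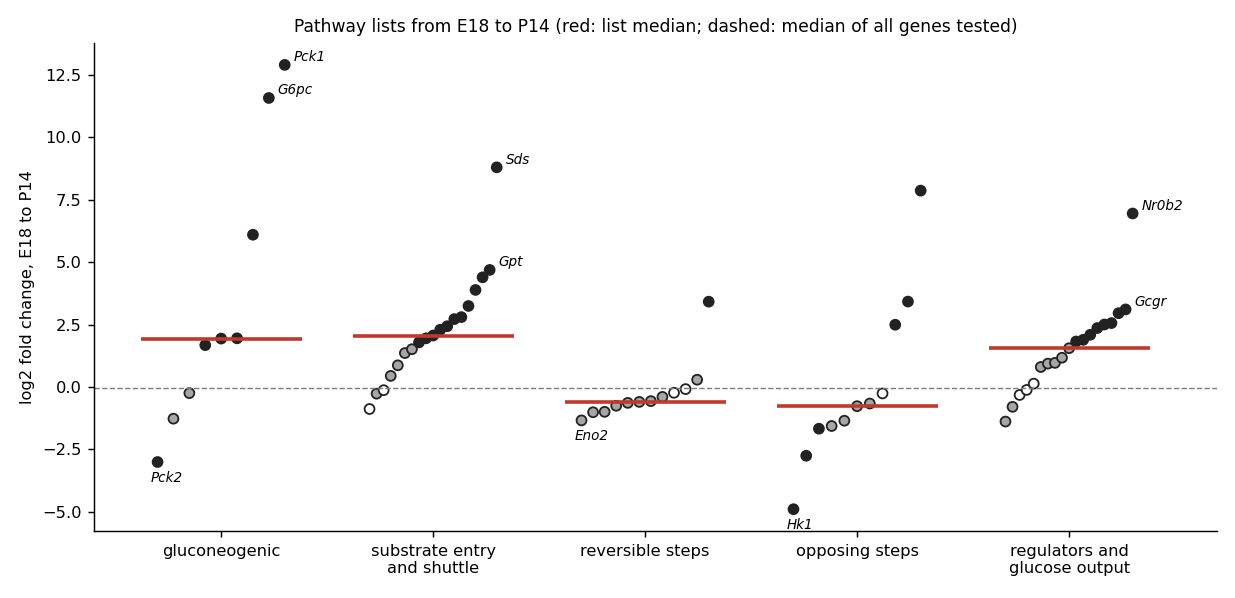
Log2 fold change from E18 to P14 of each gene in the member list and 4 related lists (points, black past both thresholds, grey at the adjusted p only, open neither), with the list median in red and the median of all genes tested as a dashed line. The substrate list and the regulator list have medians of 2.06 and 1.55, and the reversible and opposing steps -0.58 and -0.77.

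Marker genes of several cell types also changed between E18 and P14. The summed level of 8 hepatocyte genes was 43542 to 44148 CPM at E18 and 210399 to 210963 at P14. It was 149413 to 163584 at P28 and 83174 to 101962 in adult. Most of this sum was Alb, at 163456 and 163611 CPM at P14 and 65945 and 49661 in adult. From P14 to adult, 4 of the 8 genes rose and 3 fell at the adjusted p, against 4955 and 5489 of 17081 genes tested. Between E18 and P14, 8 of 8 rose past both thresholds, against 13.8% of all genes. Their log2 changes ran from 2.02 to 11.46, with a median of 3.24. The changes of Pck1, G6pc and Fbp1 were 12.91, 11.58 and 6.10, and those of Pcx and Slc37a4, 1.95 and 1.94, were below that median. Erythroid genes, from the blood-forming cells of fetal liver, summed to 6228 to 8040 CPM at E18 and 46.0 to 67.0 CPM later. Of these, 7 of 7 fell past both thresholds between E18 and P14, against 15.4% of all genes. Neutrophil genes summed to 964 to 1149 CPM at E18, 174 to 187 at P14 and 4.33 or less afterwards. From E18 to P14, 7 of 7 fell past both thresholds, against the same 15.4%. Pck2, G6pc3, Fbp2, Hk1 and Hk2 were higher in the same E18 samples. Pancreatic acinar genes summed to 243 and 524 CPM in the E18 samples, 36.0 and 36.2 CPM in P14 liver, 121 and 124 CPM in P28 liver and 109 and 123 CPM in adult liver. Of these genes Cpa1 had 7962 and 14208 reads at E18 and 0 to 5 in other samples, and Cela1 had 1375 and 1699 reads at E18 and 1931 to 9235 in other samples. In E18 replicates 1 and 2, Pck2 was at 70.1 and 61.0 CPM and Fbp2 at 2.05 and 1.48 CPM. Without E18 replicate 2, Pck2 changed by -3.10 and Fbp2 by -1.48 from E18 to P14. With 2 E18 samples, these values cannot decide what part acinar cells had. Genes of kidney and adipocytes, which also use Pck1, summed to at most 0.670 and 0.295 CPM in any sample. The part of cell makeup in the members' changes was not tested.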

How the data were processed

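Whole-liver poly(A) RNA of 8 samples of FVB mice (FVB/NJ in the methods) was sequenced by the authors. The deposited counts are the authors' raw reads per gene symbol, and the deposited RPKM are the authors' counts per kilobase and per 1000000 mapped reads. The genome build named in the submitters' processing notes is mm9, and the strand setting of the counting is not given in the sources used here. The labels name Trizol and the methods name a column kit for RNA isolation.

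Group and replicate were taken from the labels. Counts were filtered with filterByExpr of edgeR 4.0.16, scaled by TMM and fitted with glmQLFit over all 8 samples with 1 coefficient per stage. Stages were compared with glmQLFTest at a false discovery rate below 0.1 and a 3-fold change, the study's thresholds. Standard error was the log2 change divided by the square root of F. Transcript length was recovered from count and RPKM. The fits were tested on simulated data. Alternatives were DESeq2 1.42.0, limma 3.58.1 on log2(RPKM + 0.1 or 1), other filters, thresholds and scaling, leaving out each sample, and a replicate block.

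The 9 genes were taken by name, and they and all lists were chosen with earlier results of these data known. The genes named from other lists were the 2 largest increases and decreases past both thresholds in each of the comparisons from E18, and others are said to be named after their values were seen. Some genes that this rule names are not reported here. Coordinates are of GRCm38, and the files hold none. Protein alignment of the paralogue pairs was not done. At a depth of 68154675 to 106055723 reads on genes, Pck1 and G6pc at E18 and Fbp2 later rest on few reads. No exact test was run on 2 against 2 samples, since its p cannot go below 0.333.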

Additional observations from a re-analysis of the deposited data

How the results depend on the processing

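Each alternative log2 change of a member was sorted by its direction and by whether it passed both thresholds together. By this rule 566 values were unchanged, 16 no longer passed both, 11 newly passed both and 15 changed sign. A value that lost or gained the adjusted p alone counts as unchanged. G6pc3 from E18 to P14 is such a case, with an adjusted p of 0.122 in the edgeR fit of only the 2 stages compared. The changes of sign concern members that did not pass the test in the comparison. G6pc from P14 to P28 was -0.03 without P14 replicate 1 and -0.14 without P28 replicate 1. Fbp1 in that interval was -0.0029 without a filter, -0.0082 with at least 10 reads in every sample, -0.0074 with limma at either pseudocount and -0.15 without P14 replicate 1. From P28 to adult, Pck1 was 0.0098 with library size alone, 0.06 without P28 replicate 2 and 0.10 without adult replicate 2, and Fbp1 was 0.011 with library size alone and 0.063 without adult replicate 2. Ppargc1a from E18 to adult was -0.44 with library size alone, -0.41 with limma at a pseudocount of 0.1 and -0.26 at 1. Without 1 sample, the ranges were -0.14 to 0.72 (G6pc) and -0.15 to 0.19 (Fbp1) from P14 to P28, and -0.16 to 0.10 (Pck1) and -0.11 to 0.063 (Fbp1) from P28 to adult. The cause was not tested.

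Members called from E18 to P14 were 7, and 4 with limma on log2(RPKM + 1) and 6 to 7 without 1 sample. From P14 to P28 they were 0, and 1 (Fbp2) at a 2-fold threshold, without a filter, with library size alone and with the replicate block, and 0 to 1 without 1 sample. From P28 to adult they were 0, and 0 to 1 without 1 sample (G6pc, -1.71, without adult replicate 2 and Fbp2, -2.00, without adult replicate 1). From E18 to adult they were 7, and 5 with limma on log2(RPKM + 1), where Fbp2 (-1.46) was below 3-fold. Pcx was below 3-fold with library size alone (1.58) and with limma at a pseudocount of 0.1 (1.56) or 1 (1.54). The replicate numbers did not pair the samples (r of same-numbered deviations -0.414 to 0.161), so the block is a setting only. The r of -0.414, between P28 and adult, means that P28 replicate 1 tended to deviate from its stage as adult replicate 2 did. What those samples share is not given and was not tested. Without 1 sample the log2 ratios differed by 15.8 to 17.3 (Pck1 to Pck2), 11.6 to 12.5 (G6pc to G6pc3) and 8.36 to 9.20 (Fbp1 to Fbp2), with an exact p of 0.143 without an E18 sample, the smallest possible there.

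Library size alone left 19.9% of the genes called from E18 to P14 as higher, against 47.2% with TMM, and 21.2% against 41.3% from E18 to adult. Pcx, Slc37a4 and Ppargc1a then changed by 1.08, 1.07 and 0.81 from E18 to P14, below 3-fold. Over all genes, 4989 were called from E18 to P14, and 3128 with at least 10 reads in every sample and 2815 with limma at a pseudocount of 1. From P14 to P28 the counts were 1638, and 795 and 371, with 869 at a pseudocount of 0.1. From P28 to adult they were 513, and 260, 75 and 245, and from E18 to adult 6924, and 4561 and 3798. The floor of 10 reads tests fewer genes, 13950, and leaves out Fbp2.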
